A study of Mus musculus with 15 samples.

Results

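The CpG-dense methylated windows of the mouse sperm methylome were the windows of 1 kb on chromosomes 1 to 19 in which the deposited tables list 15 or more CpGs. Windows in the ribosomal DNA block of chromosome 17 were left out, as were windows with a mean coverage per CpG of at least 5 times the median coverage of 32 reads. Of 87717 windows with a listed CpG, 63 held 15 or more. The sex chromosomes accounted for 2 of these, the ribosomal block for 6 and excess coverage for 5, which left 50 windows on 17 chromosomes. They held 859 of the 204492 listed CpGs (0.420%). All 15 libraries were reduced representation bisulfite sequencing of sperm DNA cut with MspI, an enzyme that cuts at CCGG. The sperm came from male C57BL/6 mice of the generation named G1. The diet was labelled Control for 7 libraries and PR, here protein restricted, for 8. The labels do not say whether the mice or a parent ate the diet. Nor do they say that each library is a separate animal, so a p-value here measures the spread between libraries, which may be technical. Libraries of a diet carry replicate numbers given by accession, which pair nothing.

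Each listed CpG had at least 11 methylated reads in every library, so the windows are places where many neighbouring CpGs were both read and methylated. A CpG that was unmethylated, or that was not read deeply enough, is not in the tables. Total counts ran from 6650912 to 11841657 per library, of which 26875 to 45255 fell in the dense windows. Coverage per CpG had a median of 33.9 reads over the 50 windows. It exceeded 100 reads in 2 of them, at Tmem267 (117) and in a window of chromosome 12 (125), and summaries over the 50 windows that these 2 move are given with and without them. Of 4 regions methylated on the paternal copy, 3 were placed and 2 had listed CpGs. These were the regions of Meg3 and Rasgrf1, with 7 listed CpGs at 90.4% to 98.2%. Promoters of 8 germline genes, which sperm keep unmethylated, had 0 listed CpGs. Of 14 promoters methylated on the maternal copy that were placed, 1 had listed CpGs, that of Slc38a4, with 10 at 87.7% to 99.6%. Its part in the results was not tested.

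In sperm, as in other cells, methylation covers most CpGs outside the promoters, while the CpG-rich starts of genes are mostly free of it. A methylated cytosine is easily lost to mutation, so methylated DNA tends to be poor in CpGs. Stretches that are both rich in CpGs and methylated in the germ line are therefore uncommon, and are found for instance in coding exons, in islands inside genes and in repeated DNA.

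Most promoters matched to genes with dense windows were rich in CpGs. RefSeq promoters of GRCm38.p6, which run from 250 bases before to 50 after the start, were matched for 29 of the 37 genes and gave 42 promoters. None of the 42 held a listed CpG. Of all 32851 promoters in the table only 0.980% held one, so the absence does not set these genes apart. The 42 promoters held a median of 27.5 CpGs, against 7 over all promoters, though the Nlrp4e promoter had 0 and that of Fat1 2. The site CCGG, which reads the same on both strands, was present in 78.6% of them, against 52.8% of all promoters. These comparisons were not matched for gene type and were not tested, so they show no trait of genes with dense windows. The 250 bases before the start are shown for 4 genes: Srsf4 and Srrm2, which have the windows with the most listed CpGs, Tmem267, whose window lies at its start, and Nlrp4e, whose start has no CpG. All 4 are on the plus strand of GRCm38.p6, and capitals mark the CpGs. The Srsf4 stretch (chr4:131873387-131873636) has 37 CpGs, that of Srrm2 (chr17:23802937-23803186) 23, that of Tmem267 (chr13:119487836-119488085) 17 and that of Nlrp4e (chr7:23300942-23301191) 0. None of them has a listed CpG.
Srsf4: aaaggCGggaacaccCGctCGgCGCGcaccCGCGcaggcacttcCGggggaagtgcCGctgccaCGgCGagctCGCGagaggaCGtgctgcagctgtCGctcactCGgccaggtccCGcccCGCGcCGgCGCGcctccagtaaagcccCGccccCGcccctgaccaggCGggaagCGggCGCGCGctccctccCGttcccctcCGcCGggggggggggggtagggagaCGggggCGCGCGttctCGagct
Srrm2: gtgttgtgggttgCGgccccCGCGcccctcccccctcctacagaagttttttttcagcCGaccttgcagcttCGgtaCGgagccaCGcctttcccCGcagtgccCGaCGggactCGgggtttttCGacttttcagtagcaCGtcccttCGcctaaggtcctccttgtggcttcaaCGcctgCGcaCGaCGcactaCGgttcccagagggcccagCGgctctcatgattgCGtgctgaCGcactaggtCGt
Tmem267: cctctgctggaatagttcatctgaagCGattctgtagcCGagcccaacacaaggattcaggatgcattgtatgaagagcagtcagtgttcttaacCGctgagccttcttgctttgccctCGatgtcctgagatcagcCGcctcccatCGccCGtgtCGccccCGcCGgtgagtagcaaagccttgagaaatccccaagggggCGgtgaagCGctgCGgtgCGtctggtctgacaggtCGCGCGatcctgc
Nlrp4e: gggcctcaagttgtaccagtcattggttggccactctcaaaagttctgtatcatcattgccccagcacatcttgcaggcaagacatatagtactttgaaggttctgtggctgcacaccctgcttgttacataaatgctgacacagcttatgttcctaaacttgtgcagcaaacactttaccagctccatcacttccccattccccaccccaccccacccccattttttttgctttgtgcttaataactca

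The dense windows lay inside genes more often than at their starts, as did windows with fewer listed CpGs. A gene span of the RefSeq table held 37 of the 50 windows (74.0%), 34 of them of protein-coding genes. The same overlap was 65.3% for the 28482 windows with 3 to 14 listed CpGs and ordinary coverage on the same chromosomes. A transcription start lay within 1 kb of 2 of the 49 windows that could be placed (4.08%), against 2.23% of the other windows. They were the start of Tmem267 and, for the window in Rab4a, that of Gm51601. The median distance to a start was 23.5 kb, close to the 24.7 kb of the other windows. The starts used do not cover every gene, so starts can be missed and distances can be too long. The Rab11fip1 window, for example, lies inside its gene but 332 kb from the nearest start used. Of the 29 windows in genes of known strand, 7 lay in the last 10% of the gene and 4 in the first 10%, with a median position 70.6% of the way in. Exons, introns and UTRs were not analysed here, as the gene table gives spans alone.

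The listed CpGs sat close together and the windows stood alone. Within a window they spanned a median of 419.5 bases, from 109 at Snrnp70 to 997 in the chromosome 12 window, and neighbouring CpGs were a median of 14 bases apart. No 2 dense windows were adjacent. In 33 of the 50, neither neighbouring window had any listed CpG, and the fullest neighbour had 9.

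The windows with the most listed CpGs, Srsf4 and Srrm2, lay towards the ends of genes for RNA splicing proteins. The window of Srsf4, a serine and arginine rich splicing factor, held 29 (chromosome 4, 131900001 to 131901000 of mm10), 26.9 kb into the gene or 95.4% of its length. A non-coding gene, Gm12992, overlaps it. The window of Srrm2, a scaffold protein of nuclear speckles, held 26 (chromosome 17, 23819001 to 23820000), 84.6% of the way in. Those of Srsf6, a relative of Srsf4 (chromosome 2, 162934001 to 162935000), and of Snrnp70, a protein of the U1 splicing particle (chromosome 7, 45377001 to 45378000), held 18 and 15. The Snrnp70 window was picked out after its values were seen, and the splicing genes were no list of their own.

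Levels in these 4 windows had means of 95.8% to 98.5%. At Srsf4 the level was 96.7% in the lowest, 97.1% in the median and 97.7% in the highest control library, and 96.8%, 97.1% and 97.7% under protein restriction. The diets covered the same range, and no library stood apart. At Srrm2 control libraries ran from 97.3% through a median of 98.4% to 98.9%, and protein restricted ones from 97.4% through 98.5% to 98.8%. Snrnp70 had a mean of 98.5% over the 15 libraries, and Srsf6, with 1 CpG at 66.1%, a mean of 95.8%. The other windows with the most CpGs ran from low to high. Tmem267 had 24 CpGs at a mean of 79.7%, Nlrp4e 22 at 90.1%, the chromosome 12 window 20 at 76.1% and Dst 19 at 93.8%. Vwc2, which encodes a secreted antagonist of BMP signals, had 20 CpGs at 98%, Fat1, an atypical cadherin, 19 at 98.7%, and Arhgef28 19 at 98%.

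Methylation was high in most windows. The mean level over libraries had a median of 97.6% over the 50 windows, with quartiles of 94.1% and 98.5% and a range of 76.1% to 99.1%. It was at least 98% in 21 windows, at least 95% in 36 and under 90% in 6. The most methylated were Pmepa1 (99.1%), an inhibitor of TGF-beta signals, Rai14 (99.0%), an actin-binding ankyrin repeat protein, and a window of chromosome 18 outside genes (98.9%). Single CpGs followed the same pattern, with 507 of 859 (59.0%) at 98% or more and 749 (87.2%) at 90% or more. Over all listed CpGs those shares were 55.3% and 89.7%.

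**Figure D1:**
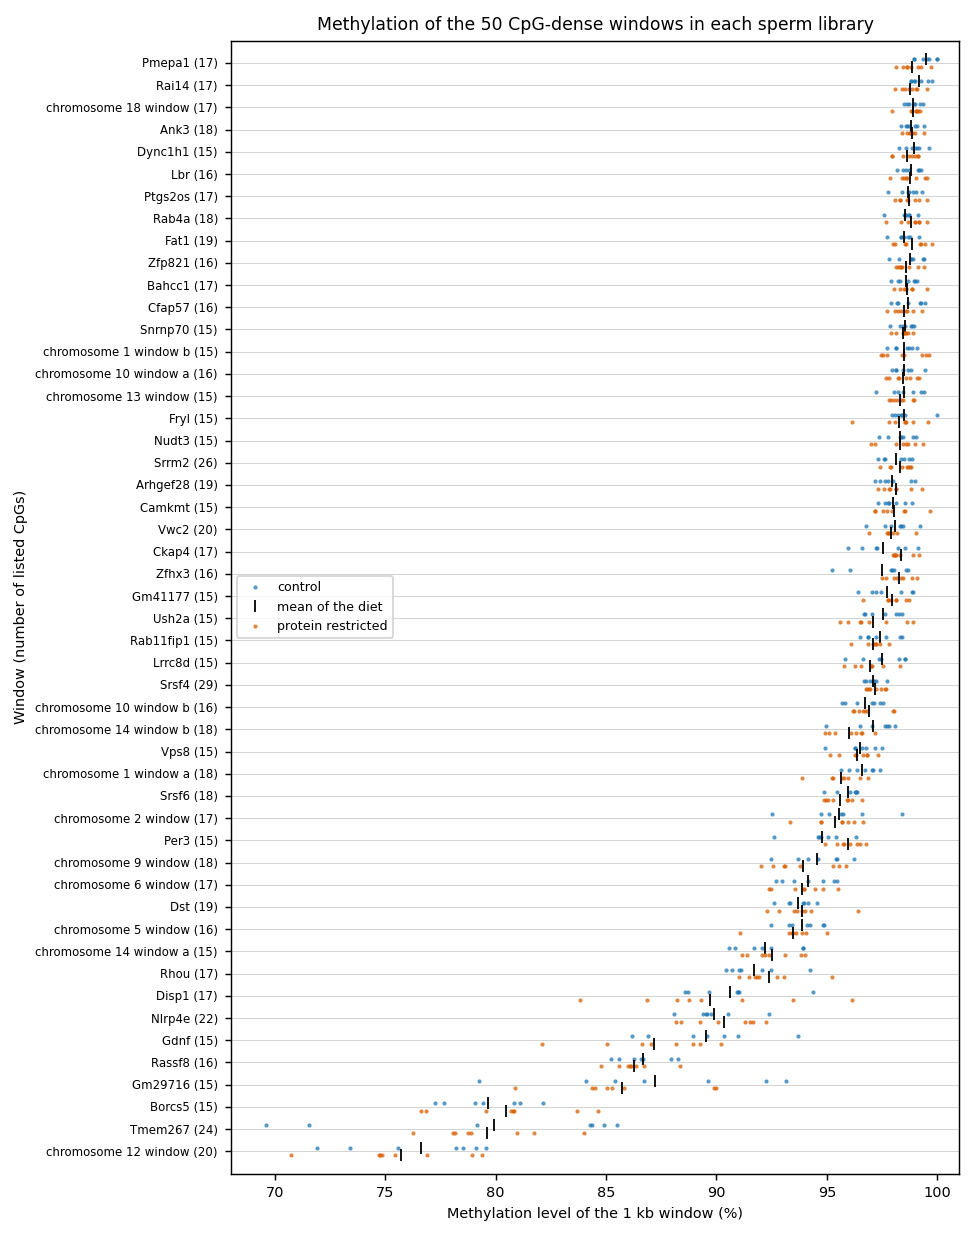
Methylation level (x axis, %) of each of the 50 windows (y axis, with the number of listed CpGs in brackets) in the 7 control and 8 protein restricted libraries, with a black bar at the mean of each diet. Most windows sit above 95% with little spread, and the chromosome 12 window, Tmem267 and Borcs5 sit lowest, at means of 76.1%, 79.7% and 80.1%.

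Compared with sparser windows, the dense ones had a slightly lower median and a smaller spread between libraries. The windows with 3 to 14 listed CpGs had a median level of 98.1%, 82.6% of them at 95% or more and 9.81% under 90%. For the dense windows these shares were 72% and 12%, and without the 2 windows of high coverage 75% and 8.33%. The 520 sparser windows with 10 to 14 CpGs had a median of 97.5% and shares of 69.4% and 16.5%. A lower level was thus not particular to the dense windows. The mean of the dense windows was below that of the sparser ones in 15 of 15 libraries, with differences from -0.813 to -0.227 percentage points. Without the 2 windows of high coverage the direction turned, and the mean was above that of the sparser windows in 12 of 15 libraries, with differences from -0.173 to 0.491. The median of the other 48 windows was 97.9%. The SD between libraries of 1 diet had a median of 0.755 percentage points in dense and 1.34 in sparser windows. The dispersion, the spread between libraries over that expected if the counts at each CpG were independent, had medians of 1.12 and 1.10. In the windows with 10 to 14 CpGs, the SD had a median of 0.961 and the dispersion of 1.28. Dense windows hold more reads each, and these differences were not tested. At the edge of the rule, the 17 windows with 15 CpGs had a median level of 97.3% and the 30 with 14 a median of 96.2%.

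The lowest levels came in a pair of windows with high coverage. In the chromosome 12 window (20233001 to 20234000), which lies outside gene spans and 6.74 kb from Gm32719, the 7 control libraries ran from 71.9% through a median of 78.2% to 79.6%. Protein restricted libraries ran from 70.7% through 75.1% to 79.4%. In the Tmem267 window (chromosome 13, 119488001 to 119489000), at the start of a gene for a membrane protein, the controls ran from 69.6% through 84.3% to 85.5%, and protein restricted libraries from 76.2% through 78.8% to 84.0%. The diets overlapped in both windows, and the lowest Tmem267 values were in controls. These windows held 27 of the 48 CpGs under 80%, spread along their length, and whether reads from other copies map there was not tested. A RefSeq promoter with 50 CpGs, also of Tmem267 (chr13:119488223-119488522), lies inside this window with no listed CpG, and the 24 listed CpGs begin after it, at 119488697.

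Outside those windows, most low CpGs were isolated, with 15 of the 21 CpGs under 80% lying between listed CpGs of 90% or more. In 34 of the 50 windows no CpG was under 80%, and in 24 every CpG was at 90% or more. Only 6 listed CpGs were under 50%, all of them in 5 windows whose other listed CpGs were mostly above 90%. The lowest was in Borcs5 (chromosome 6, position 134689412), part of a complex that positions lysosomes, at 29.5%. The next CpG listed was at 99.3% and the one before at 65.8%. Rassf8, a protein with a Ras-association domain, had CpGs at 37.3% (145815460) and 33.2% (145815609) on chromosome 6, with neighbours of 98.4% to 99.0%. Rhou, a small GTPase, had one at 40.2% (chromosome 8, 123661142) between CpGs of 99.3% and 98.4%. Gdnf, the growth factor that maintains spermatogonial stem cells, had one at 40.5% (chromosome 15, 7834748) between CpGs of 94.6% and 95.9%. The last was in Dst, a linker of cytoskeletal filaments (chromosome 1, 34179851), at 42.2% between CpGs of 98.8% and 98.7%.

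These low CpGs lay where coverage changed. A coverage step is used here for a CpG with a listed neighbour at 75% or less of its own coverage. This holds for 82 of the 859 CpGs (9.55%) and for all 6 under 50%. At the Borcs5 CpG, coverage was 99.7 reads and 26.5 at the next CpG. At the Rhou CpG it was 52.9 and then 21.0 reads, at Gdnf 56.0 and 23.2, and at Dst 52.7 and 22.5. Outside the 2 windows of high coverage, 12 of 21 CpGs under 80% were at a step (57.1%), against 66 of 794 at 80% or more (8.31%). Over all 50 windows the counts were 14 of 48 (29.2%) and 68 of 811 (8.38%). Most CpGs at a step were not low, with 63 of 82 at 90% or more. Median coverage outside the 2 windows of high coverage was 52.9 reads for CpGs under 80% and 31.4 for those at 80% or more. As each listed CpG has a minimum of methylated reads in every library, a low CpG must be covered deeply to be listed. A deeply covered CpG more easily has a neighbour at 75% or less of its coverage. The counts at a step therefore cannot separate a low level from high coverage. Both the step and the count were defined after the values were seen. Their part in the low levels was not tested, and the sequence around the CpGs was not analysed here.

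The levels of several windows depended on these CpGs. Without the CpGs at a coverage step, the Borcs5 window had a mean of 98.3% in place of 80.1%, Rassf8 92.5% in place of 86.4%, Gdnf 93.6% in place of 88.3%, Rhou 97.0% in place of 92.1% and Dst 98.1% in place of 93.8%. The other low windows moved little, to 80.7% at Tmem267, 76.0% in the chromosome 12 window, 87.3% at Gm29716 and 90.1% at Disp1. Window levels weight each CpG by its reads. As a mean of CpG percentages, with no CpG left out, the level was 89.3% at Borcs5 and 88.2% at Rassf8. In the same way it was 90.2% at Gdnf, 93.8% at Rhou and 95.2% at Dst.

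**Figure D2:**
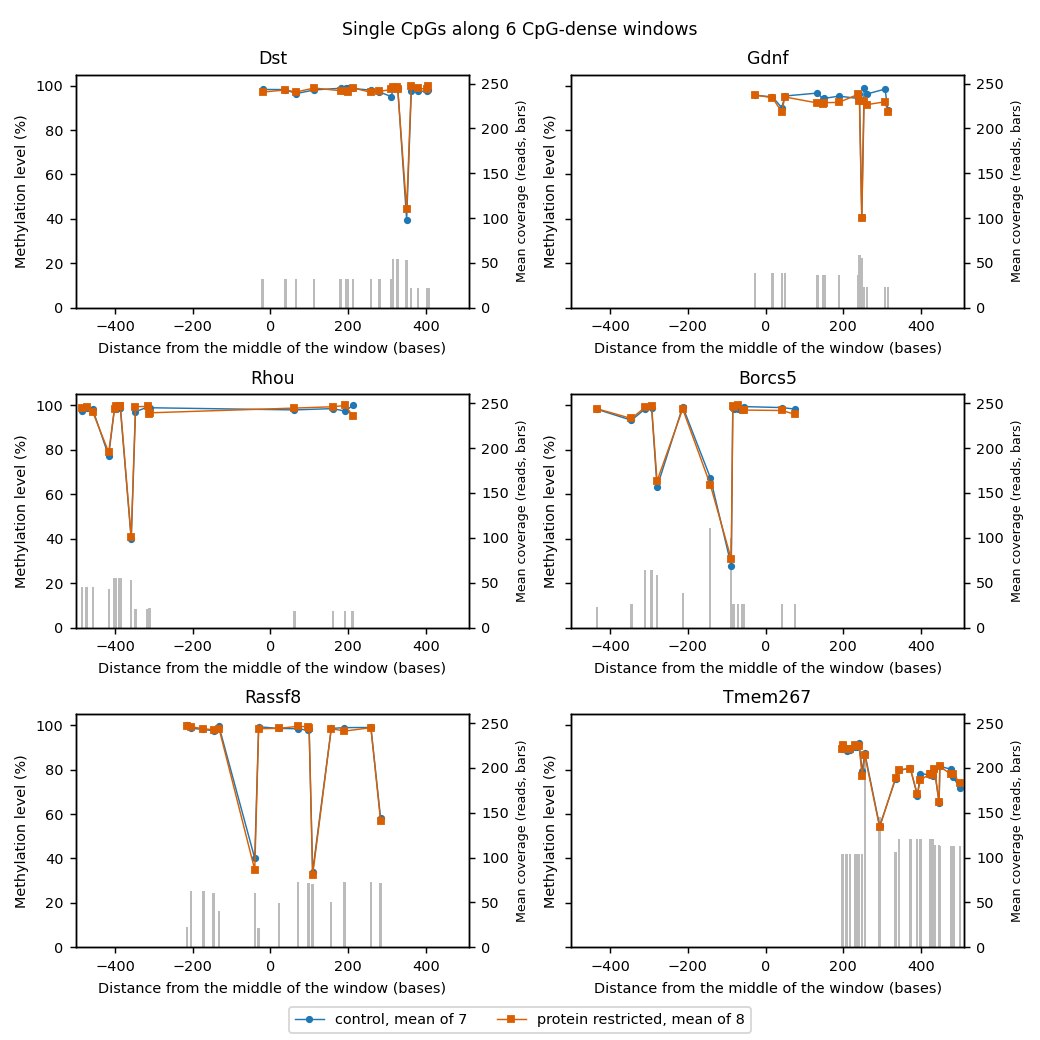
Methylation level of single CpGs (left axis, %, mean of 7 control and of 8 protein restricted libraries) and mean coverage (right axis, reads, grey bars) against the distance from the middle of the window in bases, for 6 windows. In Dst, Gdnf, Rhou, Borcs5 and Rassf8, CpGs under 50% stand among listed CpGs of high level, and in Tmem267 the CpGs run from 54.3% to 91.3%.

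In Nlrp4e, Disp1 and Gm29716, also of intermediate level, no CpG was far below the rest. Nlrp4e, of the NLR family and expressed in oocytes, had 22 CpGs at 81.7% to 98% and a window mean of 90.1% (chromosome 7, 23315001 to 23316000). Its control libraries ran from 88.1% through 89.6% to 92.4%, and the protein restricted ones from 88.2% through 90.7% to 92.2%. The 17 CpGs of Disp1, which releases Hedgehog ligands from cells, lay between 84.5% and 91.9% (chromosome 1, 183089001 to 183090000), at 97.8% of the length of the gene. The 15 CpGs of Gm29716, a pseudogene, lay between 78.6% and 92.1% (chromosome 5, 104915001 to 104916000). By contrast, a window outside genes on chromosome 14 (8888001 to 8889000), with a mean of 92.4%, had 1 CpG at 71.1%.

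Most windows hardly varied between libraries, and a few had a large dispersion. The dispersion takes counts at neighbouring CpGs as independent, but 1 read can cover several CpGs. A large value therefore does not by itself show variation beyond counting error. The SD within a diet was under 1 percentage point in 34 windows and over 2 in 6. Dispersion was at least 2 in 9 windows (18.0%), against 11% of the sparser ones, and in 14.6% without the 2 windows of high coverage. Among the sparser windows the share was 22.9% with 10 to 14 CpGs and 9.06% with 3 to 4. A large dispersion was thus not particular to the dense windows. The dispersion was 41.9 at Tmem267, 11.3 in the chromosome 12 window, 8.53 at Gm29716, 6.25 at Disp1 and 3.37 at Gdnf. At Gm29716 control libraries ran from 79.2% through 86.7% to 93.1%, and protein restricted ones from 80.9% through 85.2% to 90%. At Disp1 controls ran from 88.6% through 90.9% to 94.4%, and protein restricted libraries from 83.8% through 89.0% to 96.1%. At Gm29716 the protein restricted range lay inside the control range, and at Disp1 the control range lay inside the protein restricted one.

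In the most variable windows, a library that was low was low at most of the CpGs. At Disp1, protein restricted replicate 4 was the lowest library (83.8%) and was below the median of the 15 libraries at 17 of 17 CpGs. Protein restricted replicate 7 was the highest (96.1%) and was above the median at 17 of 17. At Tmem267, control replicate 4 (69.6%) was below the median at 24 of 24 CpGs and control replicate 7 (85.5%) above it at 23 of 24. At Gm29716, control replicate 1 (79.2%) was below at 12 of 15 and control replicate 6 (93.1%) above at 13 of 15. At Gdnf, protein restricted replicate 8 (82.1%) was below at 13 of 15 and control replicate 1 (93.7%) above at 11 of 15. In the chromosome 12 window, protein restricted replicate 6 (70.7%) was below at 20 of 20 and control replicate 3 (79.6%) above at 15 of 20. There, at Tmem267 and at Gdnf, the lowest library among the earlier CpGs was not the lowest among the later ones. At Disp1 and Gm29716 the lowest library was the same in both parts. The extremes came from both diets, and control replicate 1 was lowest at Gm29716 and highest at Gdnf. One read can cover several of these CpGs, so they are not independent measurements, and the libraries were ranked on the same CpGs.

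**Figure D3:**
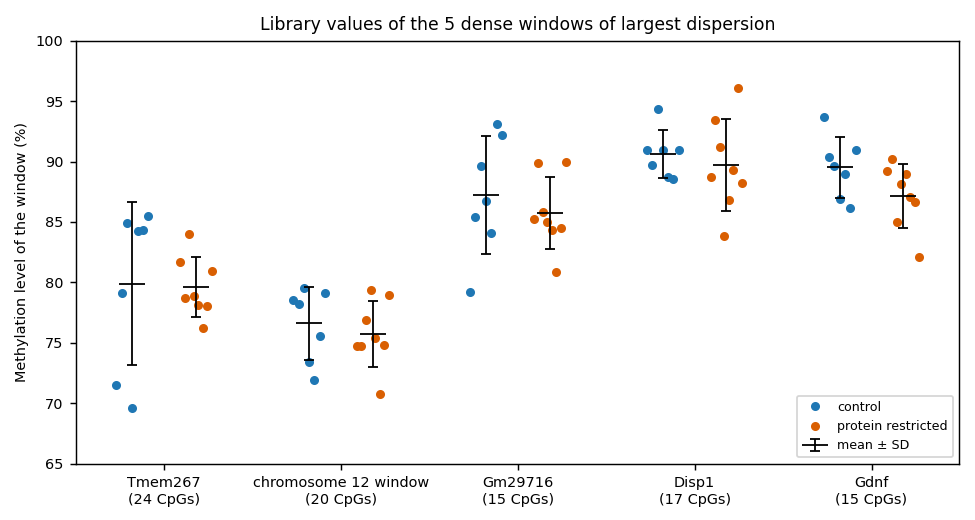
Methylation level (y axis, %) of the 5 windows of largest dispersion in each control and protein restricted library, with the mean and SD of each diet. Library values run from 69.6% to 85.5% at Tmem267, and the diets overlap in all 5 windows.

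The comparison the study was built on, protein restricted against control, gave no difference past the threshold in these windows. By the quasi-binomial test with Benjamini-Hochberg adjustment over all 28743 windows with 3 or more listed CpGs, 0 of the 50 passed an adjusted p of 0.05, as did 0% of all windows. The smallest adjusted p was 0.999. At an unadjusted p under 0.05, 3 of the 50 were called (6.00%), against 3.33% of all windows. Of these, 1 was higher under protein restriction, where the share over all windows was 1.64%, and 2 were lower, where it was 1.69%. With limma, 0 windows passed after adjustment, and 1 of the 50 was under 0.05 unadjusted, both on percentages (4.75% of all windows) and on logit values (5.08%). The libraries of the diets overlapped in all 50 windows, and did not overlap in 0.0452% of all windows.

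The sizes of the differences were small. Protein restricted minus control ran from -2.35 to 1.18 percentage points with a median of -0.115, and the SE had a median of 0.393. The mean was higher under protein restriction in 20 windows and lower in 30, where 50% of all windows were higher. The mean over the 50 windows was 95.3% in the controls, with an SD of 0.270 (n = 7), and 95.1% under protein restriction, with an SD of 0.186 (n = 8). By library it ran from 94.9% through a median of 95.3% to 95.6% in controls and from 94.8% through 95.1% to 95.5% under protein restriction, so the diets overlapped. This difference of -0.151 percentage points was not tested, as the windows share libraries. It was -0.132 without the 2 windows of high coverage and 0.00208 over the windows with 3 to 14 CpGs.

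The single windows with the smallest unadjusted p had differences of about 1 percentage point. Per3, a gene of the circadian clock, had the smallest among those higher under protein restriction (chromosome 4, 151008001 to 151009000). Its control libraries ran from 92.6% through 94.7% to 96.3% and its protein restricted ones from 94.9% through 95.9% to 96.8%. All 8 protein restricted libraries were above the control mean, yet the ranges overlapped, with a difference of 1.18 points (quasi-binomial p = 0.0493 unadjusted, 0.999 adjusted). A window of chromosome 1 outside genes (85862001 to 85863000), 10.4 kb from Cab39, was lower. Controls ran from 95.6% through 96.7% to 97.4% and protein restricted libraries from 93.9% through 95.7% to 96.9%, a difference of -0.967 points (quasi-binomial p = 0.0386 unadjusted, 0.999 adjusted). A window of chromosome 14 outside genes (47954001 to 47955000), 9.86 kb from 4930447J18Rik, was lower by a like amount, at means of 97.1% and 96.0%, with SDs of 1.09 and 0.809. Its quasi-binomial p was 0.0497 unadjusted and 0.999 adjusted. These windows were named for their p, and leaving out either of protein restricted replicates 6 and 8 took all 3 past 0.05.

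Other named windows had larger p. Higher under protein restriction were Ckap4 of the endoplasmic reticulum (by 0.775 points, all 8 libraries above the control mean), Zfhx3, a zinc finger homeobox factor (0.768), Rhou (0.664) and Rab4a of recycling endosomes (0.274). Lower were Pmepa1 (-0.643), Rai14 (-0.391) and Gdnf (-2.35). None of these had an unadjusted p under 0.05 by the quasi-binomial test with the dispersion held at 1 or above. With no lower limit on the dispersion, the quasi-binomial p of Pmepa1 was 0.0457 unadjusted and 0.956 adjusted. Leaving out 1 library took Ckap4 to 0.510 (without control replicate 6), Zfhx3 to 0.393 (without control replicate 1), Rhou to 0.255 (without protein restricted replicate 1) and Rab4a to 0.112 (without control replicate 5). Exact two-sided permutation tests, unadjusted, gave p = 0.0140 for Per3, 0.0261 for Pmepa1, 0.0312 for the chromosome 1 window and 0.0471 for the chromosome 14 window. The single window under 0.05 with limma was Per3 on percentages and Pmepa1 on logit values, with limma adjusted p-values of 0.996 and 0.955. All of these windows were picked for their small p among the 50.

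Gdnf had the largest difference of the 50 windows and the only one of 2 points or more. Controls ran from 86.2% through 89.6% to 93.7% and protein restricted libraries from 82.1% through 87.6% to 90.2%. The means were 89.5% ± 2.53 (SD, n = 7) and 87.2% ± 2.63 (SD, n = 8), and the difference was within the spread between libraries by an exact two-sided permutation test (p = 0.103). Among the sparser windows 1779 of 28482 differed by 2 points or more. The other windows of large dispersion had permutation p-values of 0.905 at Tmem267, 0.549 in the chromosome 12 window, 0.479 at Gm29716 and 0.594 at Disp1, also exact and two-sided. The quasi-binomial p of all 5, adjusted over all windows, was at least 0.999.

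**Figure D4:**
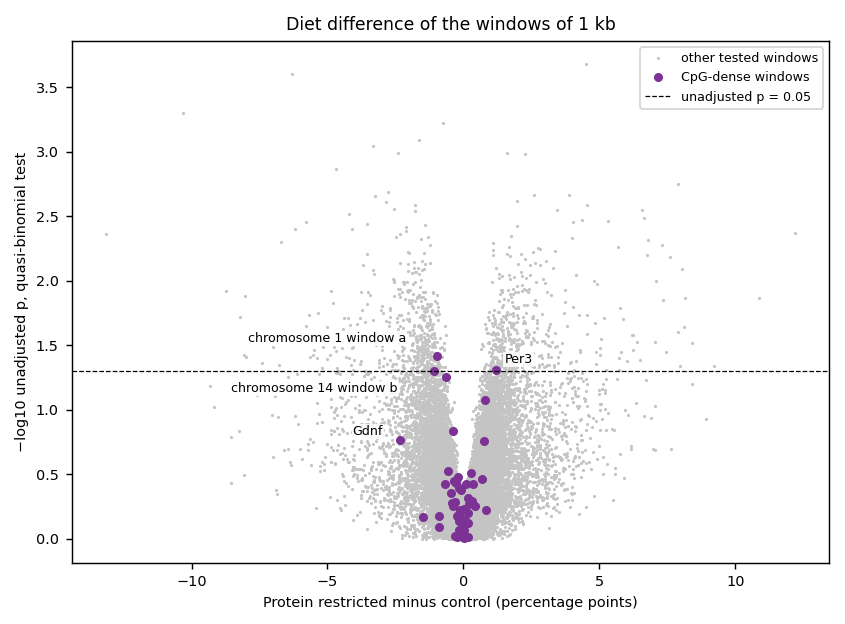
Protein restricted minus control (x axis, percentage points) against the negative log10 of the unadjusted quasi-binomial p (y axis) for all tested windows in grey and the 50 dense windows in purple, with a dashed line at p = 0.05. The dense windows lie between -2.35 and 1.18, and 3 of them are above the line.

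Single CpGs gave the same picture. By the quasi-binomial test adjusted over all 204492 CpGs, 0 of the 859 passed, as did 0% of all CpGs, and 25 were under 0.05 unadjusted (2.91%), against 3.79% of all CpGs. Of the 25, 8 were higher under protein restriction, where the share over all CpGs was 1.89%, and 17 were lower, where it was 1.9%. CpGs of 1 window share reads, and the split was not tested. With limma on percentages, 0 passed after adjustment and 21 of the 859 were under 0.05 unadjusted, against 4.56% of all CpGs. Among the CpGs under 50%, the level at Gdnf was 40.8% in control and 40.2% in protein restricted libraries, and at Borcs5 27.9% and 30.8%. The widest gaps, in opposite directions, were 40.1% against 34.9% at Rassf8 (145815460) and 39.7% against 44.4% at Dst. Title numbers of control libraries are all lower than those of protein restricted ones, so anything that follows that numbering and the diet cannot be told apart.

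The gene lists held few dense windows, as did the tested windows as a whole. Of 17 gene lists, 4 had any, of which 3 are given here. The zinc finger list had 2 dense windows of its 321 windows, at Zfhx3 (97.9%) and Zfp821 (98.7%). Cadherins and protocadherins had 1 of 122, at Fat1, and kinesin and dynein heavy chains 1 of 158, at the motor gene Dync1h1 (98.8%). Over all windows of ordinary coverage with 3 or more CpGs on these chromosomes, 50 of 28532 (0.175%) were dense. At that share, lists of these sizes would hold few dense windows or none, so the counts are no result about the families. The other 13 lists had 0. Among them were imprinted genes (64 windows), developmental transcription factors (297), solute carriers (356), voltage-gated and potassium channels (240), chromatin modifiers (171), olfactory and vomeronasal receptors (41) and the insulin, IGF and mTOR pathway (59).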

How the data were processed

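Reduced representation bisulfite libraries of sperm were compared, 7 control and 8 protein restricted. Per the file headers, each deposited table gives, per listed CpG, the counts of methylated and of all reads. The submitters' processing notes name Bismark 0.7.12, Bowtie2 2.1.0 and mm10, without roles. The sources used here give no filter for the tables. Tables held the same CpGs, and 0 of 105 pairs of libraries were identical. Each CpG is 1 position, as no listed positions were 1 base apart.

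Levels were summed methylated over summed total counts per window and library. Windows with 3 or more CpGs, and CpGs, were fitted with diet in quasi-binomial logistic models (F test on 13 residual degrees of freedom, dispersion held at 1 or above), with p adjusted by Benjamini-Hochberg over all windows or all CpGs, in Python 3.11.15 with numpy 2.4.6, scipy 1.17.1 and pandas 2.3.3. Single windows had exact permutation tests over 6435 splits, for which the smallest possible p is 0.00016. limma 3.58.1 in R 4.3.3 was an alternative. The fits were tested on simulated data. Reads carry no molecular identifiers here, so precision from depth covers counting error only.

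Members and gene lists were chosen with earlier results of these data known. Named windows were the 10 with the most CpGs, the 10 lowest, the 5 of smallest p in each direction, the 5 of largest dispersion and the 5 of widest difference between CpGs. A window took the gene whose span holds it, or one within 2 kb. The result of 1 gene list is not reported here.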

Additional observations from a re-analysis of the deposited data

Results flagged for a closer look

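Among 52 groups of libraries examined, 2 had a library far from the others, where chance gives about 1 in 20. In the Disp1 window control replicate 3 was highest, at 94.4%, with the other controls between 88.6% and 91.0%. In the Rab4a window control replicate 5 was lowest, at 97.6%, with the other controls between 98.5% and 99.1%.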

How the results depend on the processing

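No dense window passed an adjusted p of 0.05 in any setting run, by the quasi-binomial test or limma. The 3 windows under 0.05 unadjusted became 21 with 10 or more CpGs per window, 0 with 20 or more, 0 with windows shifted by 500 bases, 0 with CpGs of at least 20 reads in every library, and 1 and 1 with limma on percentages and on logit values. There were 4 with no lower limit on the dispersion and 2 without the CpGs at a coverage step. Leaving out 1 library gave 0 to 3, with 0 without protein restricted replicate 6 or 8 and 1 without protein restricted replicate 3, 4 or 7 or control replicate 4, 5, 6 or 7. The number of windows, 50, became 570 with 10 or more CpGs, 6 with 20 or more and 4 with the read minimum. Their mean level of 95.2% became 94.6%, 89.9% and 93.6% in the same order, 94.0% with the shift, 95.9% below 3 times the median coverage, 90.7% with no limit on coverage, 95.6% as a mean of CpG percentages and 96.1% without the CpGs at a coverage step, a setting added after the data were seen. The 6 windows under 90% became 92, 2 and 1 in that order, 11 with the shift and 11 with no limit. The mean diet difference ran from -0.224 to -0.0981 when 1 library was left out. The window of chromosome 1 reversed to 0.249 with the read minimum. Tmem267 (-0.311) ran from -2.03 to 0.621 when 1 library was left out, and reversed without control replicate 3 (0.5255), 5 (0.419), 6 (0.429) or 7 (0.621) or protein restricted replicate 6 (0.168). The causes were not tested. No paired analysis was possible because the labels give the diets no shared replicate numbers.

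Every library has 11 or more methylated reads at each listed CpG, so levels are of CpGs chosen for being methylated, and unmethylated dense regions are not analysed here. The SE of the diet difference, with a median of 0.393 percentage points, limits what a single window can show.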
